A study of Mus musculus with 9 samples.

Results

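Tanycytes are elongated glia that line the floor and lower walls of the third ventricle, and pituicytes are the related glia of the neural lobe of the pituitary. Both arise from ventral hypothalamic neuroepithelium and express the homeobox gene Rax. Tanycytes are known for a long process that reaches the capillaries or nuclei of the basal hypothalamus, for the conversion and transport of thyroid hormone, and for genes shared with neural stem cells. Pituicytes surround the terminals that release vasopressin and oxytocin.

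The cells described here were 171 of the 29571 cells of the series, chosen by the transcripts counted in them. A cell was taken if it lay in the 4th, 5th or 6th library of the count table, held at least 2 transcripts of Rax and Col25a1 together, and held fewer than 3 of the ciliated ependymal genes Tmem212 and Ccdc153 together. Col25a1 encodes a membrane collagen. Transcripts were counted by unique molecular identifiers (UMIs), so that PCR copies count once. The 3 libraries held 10113 cells, and 76, 34 and 61 of their cells met the rule. The shares were 2.18% of library 4 (exact 95% interval 1.72 to 2.72), 1.26% of library 5 (0.872 to 1.75) and 1.56% of library 6 (1.19 to 2.00), and neighbouring intervals in that order overlapped.

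The study dissociated brainstem, cortex and hypothalamus of C57BL/6 mice (C57BL/6J in the paper) aged 9 to 11 weeks, all collected at ZT12, the end of the light phase. Its groups were normal sleep (NS), sleep deprivation (SD) for 12 h in a sweeping-bar cage, and recovery sleep (RS) after such deprivation, for 24 h by the paper and 1 passage of the labels and for 12 h by another passage. Tissue of 3 mice was pooled into 1 library for each region and group. The table names its libraries by codes that the labels and the paper tie to neither a region nor a sleep group, so libraries 4 to 6 are given side by side, no sleep groups are compared, and no value carries a replicate check or a test.

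The cells were of moderate depth. They held 314 to 3227 UMIs each (median 811) once the pituitary hormone transcripts Gh, Prl and Pomc were left out, and 82940, 28030 and 55403 UMIs per library. Levels are UMIs of a gene summed over the cells of a library and scaled to the usual common total (CPM), with exact 95% Poisson intervals for counting error only, which do not cover variation between cells or mice. A single UMI was worth 12.1, 35.7 and 18.0 CPM in libraries 4, 5 and 6. All 171 cells held Gh UMIs, with a median of 6, 4 and 9 per cell. Gh, Prl and Pomc took 1.97%, 0.592% and 8.43% of the members' UMIs, against 29.2%, 29.6% and 36.9% in the other cells, and were over 50% of the UMIs of 3 members, all of library 6.

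The genes of the rule are given as a description. Rax stood at 687 CPM (521 to 890), 928 (606 to 1359) and 975 (732 to 1272) in libraries 4, 5 and 6, and a UMI of it was found in 95 of the 171 cells. Col25a1 stood at 1989, 1998 and 1769 CPM and was found in 151 cells. Both genes were found in 75 cells, Col25a1 alone in 76 and Rax alone in 20. The sum of their UMIs was 2 in 99 cells, just inside the rule, 3 in 46 and 4 to 8 in the remaining 26, whereas 268 cells of the same libraries held a sum of 1 and lay just outside it. The ependymal limit removed no cell, and no member held a Tmem212 or Ccdc153 UMI.

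Col23a1 was the marker of the label that the rule did not use. Col23a1 encodes another membrane collagen and stood at 446 CPM (314 to 615), 499 (273 to 838) and 379 (235 to 579) in libraries 4, 5 and 6, against 22.6, 47.5 and 19.0 CPM in the other cells. All 3 levels of the members lay far above those of the other cells. The label and its markers were chosen with earlier results of these data known, so this is no independent check of the label. Each cell was thinned at random to 500 UMIs, which left out shallower cells, 15 members and 146 of 307 microglia. Of the cells kept, 12.8% of the members held a Col23a1 UMI (8.01 to 19.1), against 2.48% of microglia (0.681 to 6.24). Microglia are a class that should lack it. Unthinned, the shares were 25.7% and 1.30%, at median depths of 811 and 511 UMIs.

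The genes that set these cells apart were then ranked against all other cells of the same library. For each gene the CPM of both sides was raised by 10 and divided, and a gene was counted if this ratio was at least 2 in each of the 3 libraries. Of 6189 genes with enough counts, 88 were higher (1.42%) and 289 were lower (4.67%). A gene had enough counts with 20 UMIs over the members or 20 CPM in each library of the other cells, and 26 of the 88 passed through the members alone, which favours a count as higher. Of the 6155 genes with 20 CPM in the other cells, 62 were higher (1.01%) and 289 lower (4.7%). Without library 5 the higher genes numbered 133. The leading genes were those with the highest ratio in their weakest library, among 370 genes with at least 10 member UMIs in each library. Col23a1 was 8.86 to 14.0 times as high across the libraries and Scn7a, the sodium-sensing channel of the circumventricular organs, 8.62 to 30.7 times. Gpc3, a glypican that binds growth factors at the cell surface, was 8.10 to 13.8 times as high.

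The uncharacterised gene 6330403K07Rik followed at 6.44 to 9.41 times and was among the most abundant, at 3292, 7100 and 2762 CPM. Ptn, the growth factor pleiotrophin, was 4.33 to 10.3 times as high, Cdh2, N-cadherin, 4.26 to 5.41 times, and Cldn10, a claudin of tight junctions, 4.04 to 11.4 times. Further leading genes included the glycolytic enzymes Eno1 (4.02 to 5.18) and Aldoc (3.22 to 4.28), Thrsp, a thyroid-hormone-responsive gene of lipid synthesis (3.30 to 6.91), the growth factor Mdk (2.65 to 3.65), the homeobox gene Six3 (2.39 to 5.01), the neurotrophin receptor gene Ntrk2 (2.30 to 4.54) and the receptor gene Notch2 (2.29 to 6.55).

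**Figure D1:**
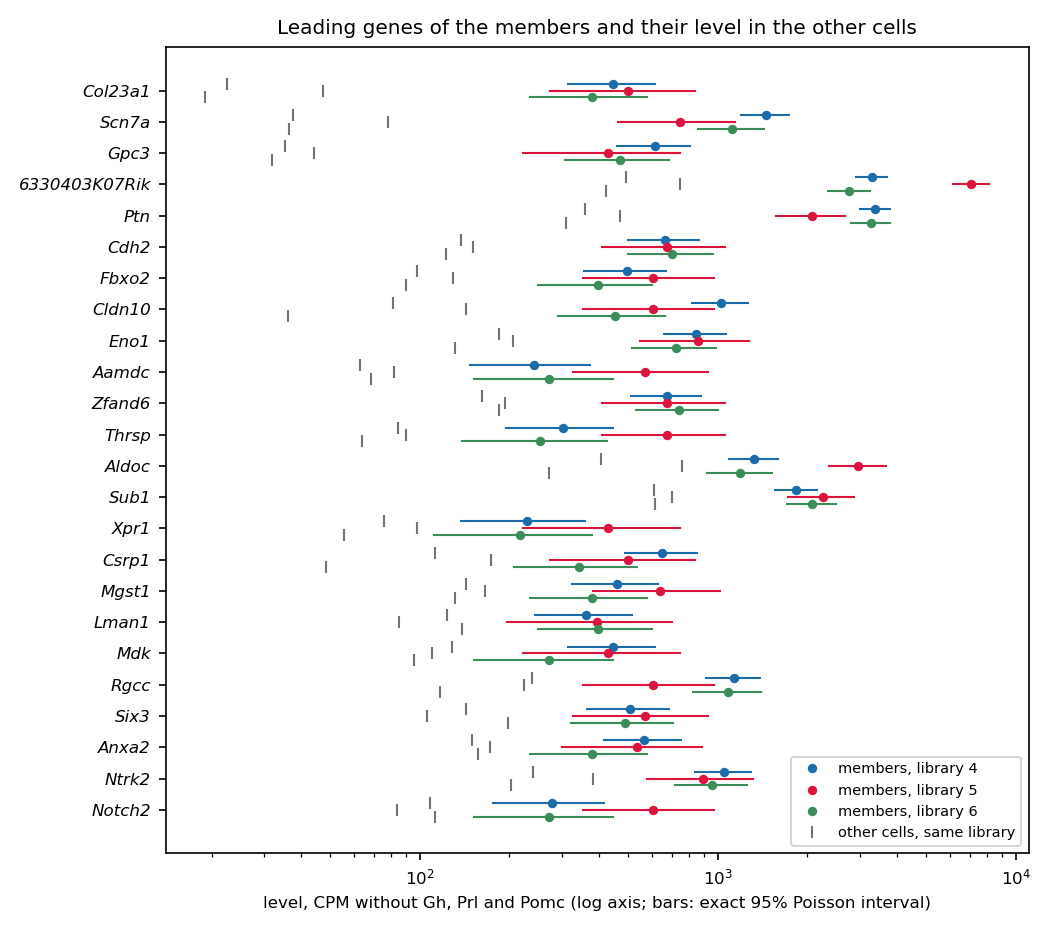
Level of leading genes (CPM, log axis) in the members of libraries 4, 5 and 6, as points with exact 95% Poisson intervals, and in the other cells of the same library, as grey ticks. The members lie above the other cells of their library for every gene shown, from Col23a1 at the top, 8.86 to 14.0 times as high, to Notch2, 2.29 to 6.55 times as high.

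In RefSeq's GRCm38.p6 annotation, Col23a1 lies at chr11:51289679-51583925, Scn7a at chr2:66673426-66784910, Gpc3 at chrX:52272426-52613974, Ptn at chr6:36714924-36810179 and Cldn10 at chr14:118787871-118874525. All 5 are protein-coding genes. Rax and Lhx2 are homeodomain transcription factors, and many proteins of that class bind sites with the core TAATTA, which reads the same on both strands. Windows of 300 bases, from 250 before to 50 after a transcription start as RefSeq's promoter table gives it, were therefore searched for it. Windows were used for 21 of the leading genes, and none for Cdh2, Lman1 or Mdk. They numbered 28, and the core was found in 1 window each of Cldn10 and Zfand6, against 1738 of 32851 windows of all genes (5.29%). The windows of Cldn10, with its match, and of Col23a1, the leading gene, without one, are shown from RefSeq's GRCm38.p6, both on the plus strand, with the core in capitals. The Col23a1 window belongs to a start that lies inside the gene's span given above, and thus reaches into the gene. The match in Cldn10 begins 197 bases before the start, and the gene's other window held none.
Cldn10, chr14:118787621-118787920: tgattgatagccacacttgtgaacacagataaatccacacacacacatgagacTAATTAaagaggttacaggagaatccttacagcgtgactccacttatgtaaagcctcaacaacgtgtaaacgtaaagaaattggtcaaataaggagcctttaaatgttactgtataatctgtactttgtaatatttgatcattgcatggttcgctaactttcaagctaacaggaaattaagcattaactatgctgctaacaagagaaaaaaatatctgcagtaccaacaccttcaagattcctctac
Col23a1, chr11:51289670-51289969: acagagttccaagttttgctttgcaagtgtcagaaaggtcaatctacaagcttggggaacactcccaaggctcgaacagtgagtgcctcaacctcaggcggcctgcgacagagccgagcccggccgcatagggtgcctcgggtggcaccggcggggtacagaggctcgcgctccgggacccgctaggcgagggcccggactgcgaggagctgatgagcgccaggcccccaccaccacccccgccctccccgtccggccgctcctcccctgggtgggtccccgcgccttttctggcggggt
These letters describe the windows and mark no site of binding.

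Shares of cells were compared at equal depth to set the members against 4 other classes of the same libraries, chosen by their own marker genes. Thinning left out the shallower cells, 53 ependymal cells, 112 astrocytes, 10 pituitary stem cells and 146 microglia. Thinned to 500 UMIs, 42.3% of the 156 members kept held an Scn7a UMI (34.4 to 50.5), against 9.43% of 371 ependymal cells, 1.02% of 98 astrocytes, 0.261% of 383 pituitary stem cells and 1.24% of 161 microglia. Ptn was found in 70.5% of the members (62.7 to 77.5), against 23.5% of astrocytes as the next class. For Cldn10, by contrast, the members at 28.8% (21.9 to 36.6) and the astrocytes at 25.5% (17.2 to 35.3) overlapped. Six3 was found in 18.6% of the members (12.8 to 25.6) and 16.2% of pituitary stem cells (12.6 to 20.3), which overlapped too. Unthinned, the members' shares were 56.1% for Scn7a, 78.4% for Ptn, 40.4% for Cldn10 and 32.7% for Six3. Other genes were not highest in the members: Nnat was found in 48.1% of them (40.0 to 56.2) and 90.0% of ependymal cells (86.5 to 92.9), Hes1 in 16.7% (11.2 to 23.5) and 31.6% of pituitary stem cells (27.0 to 36.5), and Prdx6 in 32.1% (24.8 to 40.0) and 38.8% of ependymal cells (33.8 to 44.0), which overlapped.

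**Figure D2:**
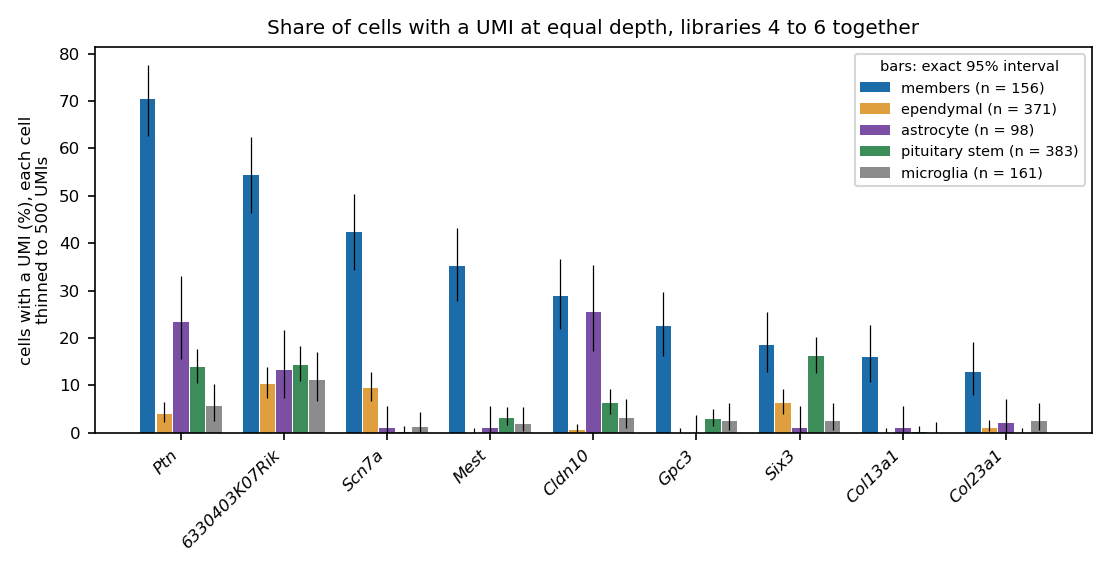
Share of cells with a UMI (%) for 9 genes, with every cell thinned to 500 UMIs, in the 156 members kept and in the ependymal, astrocyte, pituitary stem and microglia classes of libraries 4 to 6. Bars carry exact 95% intervals. The members have the highest share for each gene drawn, with intervals that overlap those of astrocytes for Cldn10 and those of pituitary stem cells for Six3.

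Genes known from tanycytes were then taken as a list, without Rax. Of 12 listed genes with enough counts, 7 were higher in the members than in the other cells and 0 were lower, beside 1.42% and 4.67% of all genes. Over all 15 genes of the list in the table the median log2 ratio was 1.89, with 1.62, 2.33 and 1.90 in the 3 libraries, beside -0.25 over all genes tested. Lhx2, Col23a1, Gpr50, Dio2, Ptn and Six3 were among the 7. Lhx2, Col23a1, Gpr50 and Dio2 had enough counts through the members alone, and the count of 7 is therefore no support for the label. Of the 7 listed genes with 20 CPM in the other cells, 3 were higher, Ptn and Six3 among them, and 0 were lower, beside 1.01% and 4.7%. Lhx2, a LIM homeobox gene that keeps tanycyte identity, stood at 109 CPM, 357 and 72.2 in libraries 4, 5 and 6, which rested on 9, 10 and 4 UMIs. Gpr50, an orphan receptor related to the melatonin receptors, stood at 157, 214 and 72.2 CPM against 6.55, 17.6 and 5.26 in the other cells. Each of these levels was at least 4 times that of the other cells.

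The remaining tanycyte genes did not pass in every library. Vim, a filament gene that tanycytes share with ependymal cells, stood at 60.3, 107 and 72.2 CPM, at 0.548 to 0.970 times the other cells and below the 627, 556 and 396 CPM of ependymal cells. Nes, the filament gene nestin, had only 4, 2 and 3 UMIs. Fabp7, a fatty acid carrier of neural progenitors, had none, so its level was below 18.0 CPM, the level of 3 UMIs over all members. Nnat, a proteolipid gene, lay at 3509, 5494 and 3321 CPM, close to the other cells at 4307, 4263 and 4916.

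Among genes of ventral tanycytes of the median eminence, called beta tanycytes, and of pituicytes, 5 of 6 with enough counts were higher than in the other cells and 0 were lower, beside 1.42% and 4.67% of all genes. Fndc3c1, Fgf10 and Nkx2-1 had enough counts through the members alone, whereas Scn7a and Mest had 20 CPM in the other cells too, and both were higher. The median log2 ratio over all 10 genes of the list in the table was 2.64. Mest, an imprinted gene of the hydrolase family, stood at 1218 CPM (992 to 1480), 321 (147 to 610) and 1173 (905 to 1495) in the 3 libraries, against 120, 64.5 and 136 in the other cells. Its interval in library 5 lay below those of the other libraries, but above the other cells of its own library. Fndc3c1, a fibronectin-domain gene, was even across libraries at 265, 321 and 271 CPM, with 10.6, 6.11 and 4.96 in the other cells. Fgf10, the growth factor that marks median eminence tanycytes, stood at 181, 71.4 and 199 CPM from 15, 2 and 11 UMIs. Nkx2-1, the ventral hypothalamic homeobox gene, stood at 205, 214 and 90.2 CPM and had no UMI in astrocytes or pituitary stem cells, where the members were at least 7.28 and 52.4 times as high.

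Adm, which encodes adrenomedullin, fell short in library 5. It stood at 181, 35.7 and 108 CPM, or 8.82, just under 2 and 7.91 times the other cells, and the value of library 5 rested on 1 UMI. Frzb and Penk, which encode a Wnt antagonist and an opioid precursor, had 11 and 8 UMIs in all, too few to be counted. Genes of alpha tanycytes, which lie higher on the ventricular wall, were taken as a further list: of 3 listed genes with enough counts, 0 were lower (4.67% of all genes) and 1 was higher (1.42%), Slc1a3, a glutamate transporter gene shared with astrocytes, at 494, 785 and 704 CPM. Of the 9 listed alpha tanycyte genes, 4 had no UMI in any member, namely Nr2e1, Slc17a8, Vcam1 and Prss56. No share of all genes without a UMI was set beside this count. The list's median log2 ratio was -0.35, beside -0.25 over all genes tested. Its summed level was 627, 821 and 722 CPM against 374, 601 and 264 in the other cells, and in the members Slc1a3 alone made up most of it.

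Among thyroid hormone genes Dio2, the deiodinase that makes active thyroid hormone, stood at 193 CPM (110 to 313), 107 (22.1 to 313) and 180 (86.6 to 332), against 13.8, 10.2 and 12.0 in the other cells, and ependymal cells had no UMI of it, so that the members were at least 43.9 times as high. Of 5 genes of the pathway with enough counts, 2 were higher, Dio2 among them, and 0 were lower, beside 1.42% and 4.67% of all genes. The median log2 ratio of the whole list was -0.08 with 10 CPM added. With nothing added and genes without a UMI taken at their bound, it was 1.25 over 7 genes, with 4 left out. The 4 had no UMI in the members and at most 18.0 CPM in the other cells. Genes with any member UMI stayed, however low in the other cells, which favours a higher median. The list's summed level was 808, 1035 and 704 CPM, against 421, 554 and 362 in the other cells. Dio2 had enough counts through the members alone. The receptor gene Thra was close to the other cells at 145, 107 and 162 CPM against 136, 180 and 107. Crym, which encodes a thyroid hormone binding protein, stood at 96.5, 71.4 and 72.2 CPM against 24.7, 10.9 and 6.72, but its 14 UMIs were too few to be counted. Slco1c1, a thyroid hormone transporter gene, and the inactivating deiodinase gene Dio3 had no UMI.

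Of 6 hypothalamic position factors with enough counts, 4 were higher than in the other cells, Lhx2, Nkx2-1, Six3 and Tbx3, and 0 were lower, beside 1.42% and 4.67% of all genes. Lhx2, Nkx2-1 and Tbx3 had enough counts through the members alone, and of the 3 factors with 20 CPM in the other cells 1 was higher, Six3. The list's median log2 ratio was 0.33 with 10 CPM added. By library it was above 0 in libraries 4 and 5 and -0.30 in library 6. With nothing added and genes without a UMI taken at their bound, the median was 1.37 over 8 genes, with 1 left out. That gene had no UMI in the members and was low in the other cells, and leaving out such genes alone favours a higher median. The list's summed level was 1338, 1784 and 902 CPM in the members. It was 1051, 607 and 990 in pituitary stem cells, which were thus higher in library 6. Tbx3, a T-box gene of the tuberal hypothalamus, stood at 133, 178 and 180 CPM against 13.1, 15.6 and 6.72. Of the pituitary factors, 3 of 3 with enough counts were lower, Pitx1 and Pou1f1 among them, which act in the anterior pituitary. Pitx1 had no UMI in the members and 76.8, 43.4 and 91.4 CPM in the other cells, at least 4.26 times as high over the 3 libraries.

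Secreted factors were mixed, and the counts of this list and the next ones stand beside 1.42% higher and 4.67% lower of all genes. Ptn, Mdk and Fgf10 were higher, and Igfbp3 and Cxcl12, an insulin-like growth factor binding protein gene and a chemokine gene, were lower, of 12 tested, Fgf10 with enough counts through the members alone. Igfbp5 differed between libraries, at 1592, 321 and 740 CPM. Vegfa, the angiogenic factor, stood at 72.3, 35.7 and 126 CPM from 6, 1 and 7 UMIs, against 28.8, 37.3 and 20.4. Among growth factor and hormone receptors, Fgfr1 at 446, 285 and 397 CPM and Ntrk2 at 1049, 892 and 957 CPM were higher, and the prolactin receptor gene Prlr was lower, of 5 tested. The leptin receptor gene Lepr had no UMI.

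The remaining pathways had at most 2 genes in either direction, beside the same shares of all genes. The lipid regulator Srebf1 stood at 446, 321 and 253 CPM against 60.4, 80.1 and 56.6 and was 1 of 10 lipid genes that was higher, with 0 lower. Of the tight junction and adhesion genes, Cldn10 and Cdh2 were higher of 5 tested. Retinoid genes had 0 higher and 2 lower of 3, Rbp4 and Rarres2. Glucose and lactate genes had 0 higher and 1 lower of 6, Hk2, a hexokinase gene. Of the membrane collagens beside the rule's own, Col13a1 and Col23a1 had enough counts, through the members alone, and both were higher.

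Ependymal cells, which line the same ventricle and carry motile cilia, were the nearest class by position. Of 5032 genes, 155 were higher in the members (3.08%) and 783 were lower (15.6%), and 62 of the 155 had enough counts through the members alone. Of the 4956 genes with 20 CPM in ependymal cells, 93 were higher (1.88%) and 783 lower (15.8%). Over the 3 libraries together and with nothing added to the levels, Ptn was 60.4 times as high as in ependymal cells (exact 95% interval 43.6 to 86.0), 6330403K07Rik 18.7 times (15.6 to 22.4) and Col23a1 36.3 times (18.1 to 82.7). Other ratios rested on few ependymal UMIs and are wide. Thrsp, with 3, was 87.8 times as high (28.6 to 438), Cldn10, with 2, 288 times (78.2 to 2407), Gpc3, with 1, 404 times (70.7 to 16144), and Mest, with 1 in all 424 cells, 795 times (141 to 31573). No order can be read among these. Lmo1, a LIM-only transcription factor gene, stood at 579, 143 and 632 CPM and had no UMI in ependymal cells, so that the members were at least 132 times as high. The tanycyte list and the beta tanycyte and pituicyte list kept their direction, at a median log2 ratio of 1.60 and 2.58 over the whole lists beside -0.40 over all genes tested. Among genes with 20 CPM in ependymal cells, 2 of 7 tanycyte genes were higher and 1, Vim, was lower, and 1 of 2 genes of the other list was higher, Scn7a. The other higher genes of these lists, 5 of each, had enough counts through the members alone.

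Of 8 ependymal markers beside those that chose the class, 7 were lower in the members and 0 were higher, beside 15.6% and 3.08% of all genes. The exception was Mia. Foxj1, the master regulator of motile cilia, had no UMI in the members and stood at 532, 503 and 507 CPM in ependymal cells, at least 28.4 times as high. Rarres2, which encodes chemerin, stood at 121, 35.7 and 90.2 CPM against 4491, 4683 and 4718. Dbi, the acyl-CoA binding protein gene, stood at 1326, 1284 and 1119 CPM against 24121, 24534 and 26832. Some leading genes were held by ependymal cells at a lower level, Scn7a at 166, 146 and 149 CPM, a gap of 4.88 to 8.26 times, 6330403K07Rik at 216, 232 and 184 CPM and Aldoc at 166, 311 and 174.

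The radial glia genes went both ways. Hes1, a Notch target, and Notch2 were higher than in ependymal cells, whereas Vim, Dbi and Id4, an inhibitor of differentiation, were lower, of 9 tested, beside 3.08% higher and 15.6% lower of all genes in this comparison. Hes1 stood at 362, 1177 and 325 CPM against 116, 146 and 80.2. Sox9, a glial transcription factor gene, stood at 277, 464 and 271 CPM against 732, 695 and 740, and was not counted as lower because its gap in library 5 was under 2 times. Sox2 stood at 181, 250 and 18.0 CPM, the last from 1 UMI.

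Astrocytes, the glia of the brain tissue itself, were compared next. Of 2566 genes, 89 were higher in the members (3.47%) and 201 were lower (7.83%), with only 11 astrocytes in library 6. Of the 89, 67 had enough counts through the members alone, and of 2310 genes with 20 CPM in astrocytes 22 were higher (0.952%) and 201 lower (8.7%). The 89 became 148 without library 5, 149 without library 6 and 42 in members with a UMI of each rule gene. Over the 3 libraries together, with nothing added, Six3 was 9.47 times as high as in astrocytes (4.40 to 24.3), Gpc3 13.9 times (5.73 to 43.8) and Ptn 3.97 times (3.20 to 4.96). Astrocytes held 3 UMIs of Col23a1 and 1 of Scn7a, and the members were 18.7 times (6.15 to 92.9) and 158 times (28.1 to 6283) as high. Gjb6 and Agt were among the genes that chose the astrocytes, so their levels there are a description. Gjb6, a connexin gene, had no UMI in the members and 1178, 1737 and 377 CPM in astrocytes, at least 75.2 times as high. Agt, which encodes angiotensinogen, stood at 96.5, 178 and 54.1 CPM against 3266, 4534 and 2034. Some astrocyte genes were held by the members too. By library, Ntrk2 lay at 0.685 to 1.41 of the astrocyte level, Aldoc at 0.536 to 0.931 and Slc1a3 at 0.268 to 1.04. Over the 3 libraries together, with nothing added, Ntrk2 lay at 0.846 (0.675 to 1.06). Aldoc at 0.531 (0.452 to 0.624) and Slc1a3 at 0.301 (0.237 to 0.380) were below astrocytes.

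Against pituitary stem cells, which also express Sox2 and Six3, the members had no UMI of 5 of the 6 listed stem markers, and 35.7 CPM of the sixth in library 5. The share of all genes without a UMI was not set beside this count. Of these markers, Cyp2f2, Aldh1a2 and Lcn2 chose the class and are therefore a description. Cyp2f2, a cytochrome gene, had no UMI in the members, which were at least 88.1 times lower. Fndc3c1 and Gpr50 had no UMI in the stem cells and were at least 86.1 and 43.1 times as high in the members.

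Markers of other cell types were summed over each list to give the material that the members could hold besides their own. Neuron markers summed to 265, 499 and 343 CPM, against 823, 835 and 467 in the other cells, and Snap25, a synaptic vesicle fusion gene, to 84.4, 107 and 90.2 CPM. Microglia markers summed to 326, 357 and 36.1 CPM, endothelial markers to 12.1, 143 and 180, with 4 of 7 at no UMI, and oligodendrocyte markers to 0, 0 and 36.1, with 4 of 5 at no UMI. Beside these counts too, no share of all genes without a UMI was set. Ependymal markers without the rule's genes summed to 977, 2319 and 1354 CPM, of which Mia, also a gene of pituitary stem cells, made up 723, 1605 and 1011. Astrocyte markers summed to 651, 785 and 433 CPM, against 8336, 10573 and 4821 in astrocytes. Mural, fibroblast, oligodendrocyte precursor and erythroid markers stayed at or under 143 CPM in each library, and those of pituitary stem cells had UMIs in library 5 alone, at 35.7 CPM. Markers of pituitary endocrine cells summed to 8500, 357 and 3971 CPM, against 25479, 12484 and 22172 in the other cells. Avp and Oxt encode neuropeptides that pituicytes surround but do not make. Avp stood at 241, 107 and 0 CPM and Oxt at 96.5, 0 and 18.0 CPM. Their sum was below the other cells in each library, at 338, 107 and 18.0 CPM against 489, 1720 and 352. The part of this material in the gene levels was not tested.

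Of the members, 4 stood apart by gonadotroph hormone transcripts. They held 147 to 289 UMIs of Cga, Lhb and Fshb, the subunits of the gonadotropins, whereas no other member held more than 2, and 3 of them lay in library 4 and 1 in library 6. Cga fell from 5655 to 224 CPM in library 4 and from 2527 to 370 in library 6 when they were left out. The secretory granule gene Scg2 went from 735 to 105 CPM in library 4. Igfbp5 stayed at 1592 with them and 1644 without them, and the count of higher genes was 88 with them and 87 without.

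Levels were next read along the number of Rax and Col25a1 UMIs, which also chose the members, so the steps are a description. Among cells under the ependymal limit, Scn7a stood at 17.7 CPM in 9250 cells with a sum of 0, 503 in 268 cells with 1, 941 in 99 cells with 2 and 1519 in 72 cells with 3 or more. Col23a1 stood at 18.4, 297, 383 and 486 CPM and Mest at 120, 416, 825 and 1295 over the same steps. Cells with 1 UMI held them above cells with none, apart from Mest in library 5, at 70.4 CPM (56.5 to 86.6) with none and 102 (37.6 to 223) with 1. The steps mix the libraries unevenly, library 5 giving 97 of the 268 cells, 25 of the 99 and 9 of the 72. Median depth rose over the steps too, at 568, 682, 778 and 870 UMIs, and its part was not tested. Within each library the point values of the 3 genes also rose at each step: Mest from 756 to 1118 and 1294 CPM in library 4, from 102 to 296 and 360 in library 5 and from 356 to 779 and 1770 in library 6, over sums of 1, 2 and 3 or more. Neuron genes went the other way from 1 UMI onward: Snap25 stood at 292, 320, 139 and 37.4 CPM and the synaptic gene Syt1 at 206, 261, 151 and 49.8, although in library 6 Syt1 stood at 189 with 1 UMI and 210 with 2.

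**Figure D3:**
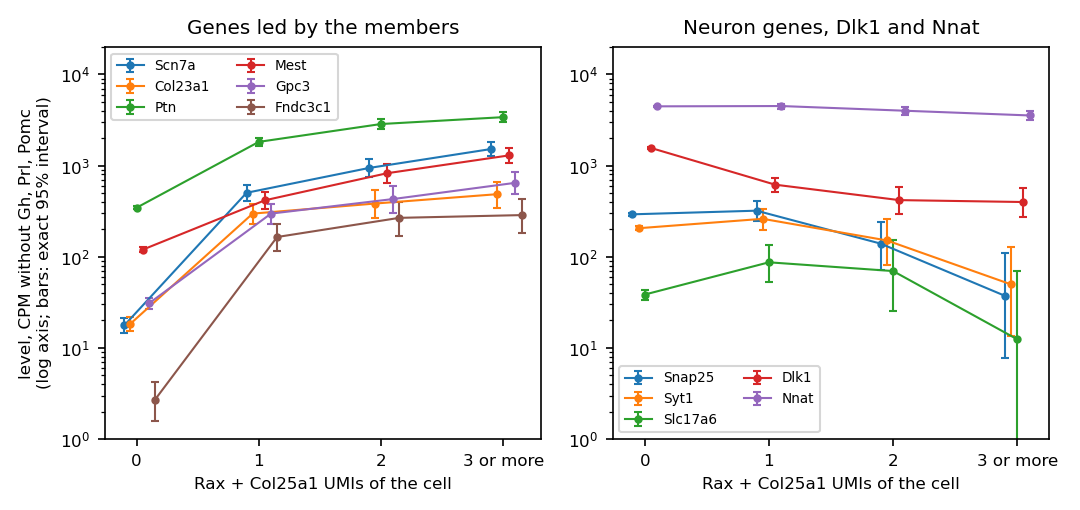
Level (CPM, log axis, exact 95% intervals) by the summed Rax and Col25a1 UMIs of the cell, for 6 genes led by the members (left) and for neuron genes, Dlk1 and Nnat (right), libraries 4 to 6 together. Scn7a rises from 17.7 to 1519 CPM, while Snap25 goes from 292 to 37.4.

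The neuron transcripts lay mostly in members with Col25a1 alone. Syt1 stood at 229 CPM (131 to 371) in the 76 cells with Col25a1 alone and 12.9 (0.326 to 71.7) in the 75 with both genes, and had no UMI in the 20 with Rax alone. Snap25 stood at 172, 25.7 and 53.4 CPM in that order. Tanycyte and pituicyte genes were found in all 3 kinds: Scn7a stood at 943, 1545 and 907 CPM in cells with Col25a1 alone, both and Rax alone. Nnat did differ, at 2159, 4004 and 8912 CPM, lowest with Col25a1 alone and highest with Rax alone. In all, 9 members held at least 2 UMIs of the neuron markers.

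The 3 libraries were then set side by side, for genes whose interval in 1 library lay apart from both others. This way of listing was chosen after the values had been seen, and it reads counting error alone. Of 1312 genes, 11 were higher (0.838%) and 11 lower (0.838%) in library 5, 6 higher (0.457%) and 2 lower (0.152%) in library 4, and 5 higher (0.381%) and 7 lower (0.534%) in library 6. Prdx6, an antioxidant enzyme gene on the tanycyte list, stood at 989 CPM (786 to 1227), 3389 (2742 to 4143) and 505 (336 to 730), while ependymal cells of the same libraries held 1042, 1105 and 858. The other cells were highest in library 5 too, at 344, 549 and 368 CPM for Prdx6 and 491, 746 and 420 for 6330403K07Rik. Hes1, 6330403K07Rik and Nnat also stood highest in library 5. S100a6, a calcium binding protein gene, stood at 277, 749 and 162 CPM in the members. The other cells were highest in library 5 too, at 214, 292 and 256, whereas ependymal cells were lowest there, at 1591, 919 and 1377.

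The genes that were low in library 5 included Mest of the beta tanycyte and pituicyte list. Col13a1, a membrane collagen gene, stood at 494 CPM (355 to 671) and 343 (206 to 536) in libraries 4 and 6 and 35.7 (0.903 to 199) in library 5, from 1 UMI. Lmo1 stood at 579, 143 and 632 CPM, Npc2, a lysosomal cholesterol carrier gene, at 808, 285 and 1083, and the Notch ligand relative Dlk1 at 446, 71.4 and 523. The other cells were also lowest in library 5 for Mest, at 120, 64.5 and 136 CPM, for Lmo1, at 40.8, 17.0 and 33.9, and for Col13a1, at 24.4, 2.71 and 8.47. The part of such a shift of the whole library in the members' levels was not tested. With 34 members, library 5 was also the smallest and shallowest.

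At equal depth of 500 UMIs a cell, with 71, 26 and 59 members kept, Prdx6 was found in 28.2% (18.1 to 40.1), 80.8% (60.6 to 93.4) and 15.3% (7.22 to 27.0) of the members. Unthinned, the shares were 39.5%, 88.2% and 23.0%, and library 5 was highest either way. Mest was found in 39.4%, 19.2% and 37.3%, with an interval of 6.55 to 39.4 in library 5 that overlapped the others. Lmo1 was found in 31.0% (20.5 to 43.1), 3.85% (0.0973 to 19.6) and 20.3% (11.0 to 32.8). The interval of library 5 lay apart from both others for Prdx6, and from that of library 4 alone for Lmo1.

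**Figure D4:**
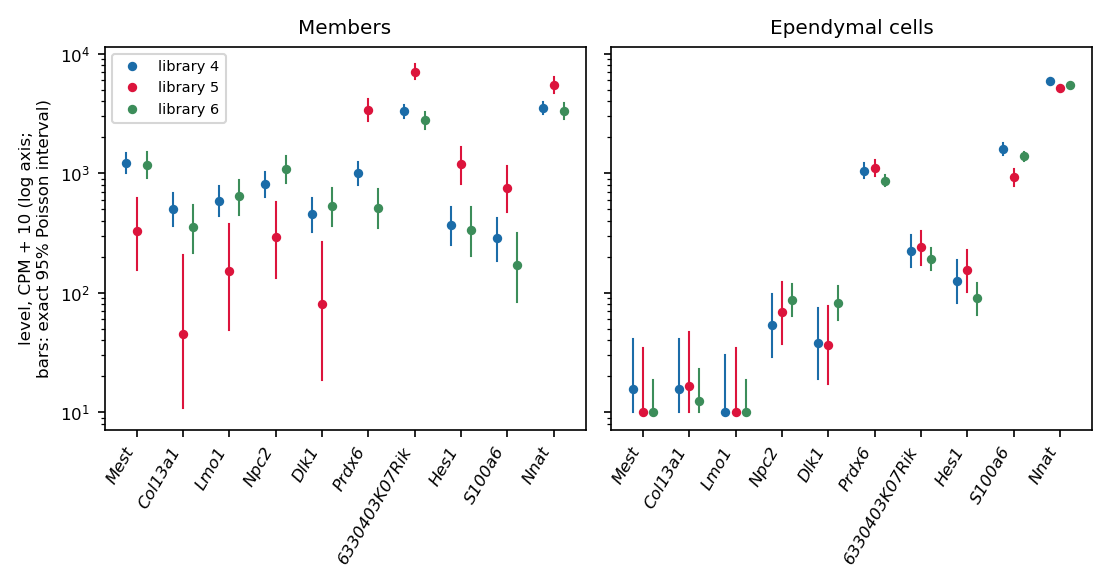
Level (CPM + 10, log axis, exact 95% Poisson intervals) of 10 genes in the members (left) and ependymal cells (right) of libraries 4, 5 and 6. In the members, Mest to Dlk1 are lowest and Prdx6 to Nnat highest in library 5, whereas ependymal levels of Prdx6 are close, at 1042, 1105 and 858 CPM.

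Library 6 stood apart in another set. Malat1, a nuclear RNA, stood at 81384, 78273 and 137104 CPM, and mt-Nd1, mt-Co2 and mt-Atp6 of the mitochondrial genome were lowest there, mt-Atp6 at 16651, 15698 and 10830. Malat1 was also highest in library 6 in the other cells, at 88683, 66197 and 98838 CPM, and mt-Atp6 lowest, at 11078, 13946 and 6447, whereas Malat1 in ependymal cells stood at 35910, 32201 and 35180 CPM. The part of RNA quality in the members' levels of library 6 was not tested. Library 4 was higher in Igfbp5 and in Arl6ip1, a membrane protein gene of the endoplasmic reticulum, at 1784, 749 and 1119 CPM, and in the gonadotroph genes that came from 3 cells.

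The members of libraries 4 and 6 were also split by whether a UMI of Mest or Col13a1 or a UMI of Prdx6 or 6330403K07Rik was found. This split was chosen after the values had been seen, and these 4 genes are therefore no result of it. Of 137 members, 32 held only the first pair, 45 only the second, 43 both and 17 neither, so the pairs were not exclusive. The 17 cells with neither held most of the neuron transcripts, with Syt1 at 828 CPM (428 to 1447) and Snap25 at 483 (194 to 995), against 0 to 24.8 and 0 to 99.3 CPM in the other kinds. In library 5, 0 of 34 held only the first pair and 26 only the second.

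Among the genes read, several outside the split followed it, and the share of all genes that did so was not counted. Lmo1, Npc2, Nnat, Apoe and Cst3 had also stood apart in library 5. Lmo1 stood at 1465 CPM (1056 to 1980) in cells with only Mest or Col13a1 and 124 (40.3 to 290) in cells with only Prdx6 or 6330403K07Rik, and in the same order Npc2 stood at 1674 and 273, Fgf10 at 384 and 49.6, and Gpc3 at 907 and 248. Nnat went the other way, at 837 (536 to 1245) and 7246 (6439 to 8127), as did Apoe, the lipid carrier gene, at 3417 and 9653, and Cst3, which encodes cystatin C, at 3243 and 9231. Cells with both pairs lay in between, with Lmo1 at 583 CPM and Nnat at 2296. Col23a1 stood at 209 (76.8 to 455) and 670 (442 to 975), with intervals that just overlapped. Dio2 stood at 34.9 and 248 CPM, from 1 and 10 UMIs, with overlapping intervals (0.883 to 194 and 119 to 456). Scn7a at 1116 and 1216 CPM and Ptn at 3417 and 3474 did not separate. Rax at 1081 and 918 CPM and Col25a1 at 1988 and 1960 were close too, but these genes chose the members and are a description.

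For Lmo1 and Nnat the order was the same within both libraries. In cells with only the first pair, Lmo1 stood at 1350 CPM in library 4 and 1564 in library 6, and in cells with only the second at 222 and 0. Nnat stood at 450 and 1173 CPM in the first and 8390 and 5796 in the second. The median depth was 866.5 UMIs in the first and 731 in the second, against 1019 in cells with both pairs, and the part of depth in the split was not tested.

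**Figure D5:**
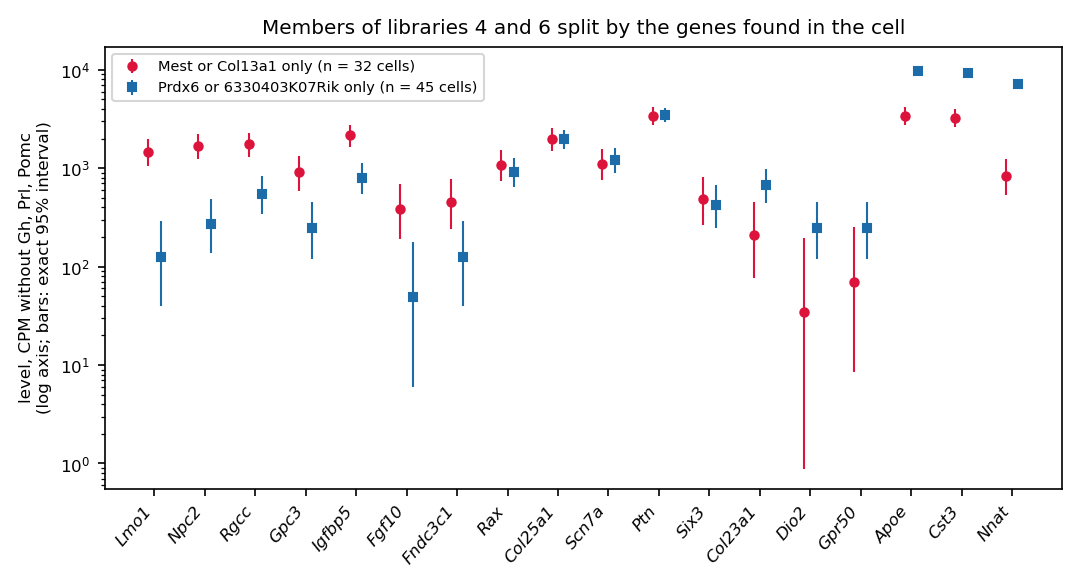
Level (CPM, log axis, exact 95% intervals) of 18 genes in members of libraries 4 and 6 with only Mest or Col13a1 (32 cells) and with only Prdx6 or 6330403K07Rik (45 cells). Lmo1 to Fndc3c1 have the higher level in the first, Rax to Six3 are close, and Col23a1 to Nnat have the higher level in the second, with overlapping intervals for Fndc3c1, Col23a1, Dio2 and Gpr50. Rax and Col25a1 chose the members, so their levels are a description.

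Genes that respond to sleep loss or to the time of day were given by library without reference to a sleep group. Of 12 immediate early genes, 5 were lower in the members than in the other cells in every library (4.67% of all genes), Fos, Junb, Egr1, Btg2 and Nr4a1, and 0 were higher (1.42%), at a median log2 ratio of -1.57. Fos stood at 48.2 CPM (13.1 to 123), 499 (273 to 838) and 325 (193 to 513), lowest in library 4, and the other cells held 493, 1078 and 1084. Against ependymal cells, 1 of 7 immediate early genes was higher, Ier2, and 0 were lower, beside 3.08% and 15.6% of all genes, and the median log2 ratio was 0.79.

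Among clock genes, Hlf, an output transcription factor gene, was the 1 of 8 that was higher, at 193, 285 and 144 CPM against 78.6, 81.4 and 60.1. Dbp, a related output gene, stood at 277 (176 to 416), 143 (38.9 to 365) and 0 CPM in libraries 4, 5 and 6, where the 0 allows up to 66.6, while the other cells held 224, 167 and 140. Per3 was level at 253, 214 and 162 CPM against 246, 167 and 208. Glucocorticoid target genes had 0 higher and 1 lower of 9, Cdkn1a, a cell cycle inhibitor gene, and the shares of all genes were again 1.42% and 4.67%. Of the genes also probed in tissue sections, 3 had enough counts, and 0 were higher or lower than in the other cells. Mt1, a metallothionein gene, stood at 4799, 8741 and 4440 CPM in the members and 3505, 6603 and 5291 in the other cells, highest in library 5 in both. Tsc22d3, a leucine zipper gene induced by glucocorticoids, lay at 265, 464 and 271 CPM, at 0.985 to 1.01 of the other cells, and below ependymal cells at 632, 1065 and 632.

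As a whole profile over 3249 genes, Pearson's r of the log2 levels across genes was 0.751 between the members of libraries 4 and 5, 0.844 between those of 4 and 6, and 0.710 between those of 5 and 6. Within a library it was 0.511 to 0.532 with ependymal cells, 0.583 to 0.709 with astrocytes, 0.588 to 0.744 with pituitary stem cells and 0.559 to 0.685 with microglia. In library 6 the value with pituitary stem cells, 0.725, was above that with the members of library 5. Genes are not independent replicates, and classes of a library share its depth and free RNA, so the values are a description.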

How the data were processed

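Single-cell suspensions were prepared with papain and myelin removal beads and sequenced as 9 libraries of 3 pooled mice each. The authors mapped the reads with Cell Ranger 2.2.0 to GRCm38 and deposited 1 table of UMI counts for 18634 genes and 29571 cells, with no normalization. R 3.5.3 is named in the submitters' processing notes. Libraries are numbered in column order. Each pair of libraries shared 5 to 25 cell barcodes, and the barcode of 5 members also occurred in another library.

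Gh, Prl and Pomc were left out, and the remaining counts of each class were added up within a library and scaled to CPM. A gene entered a comparison with at least 20 UMIs over the members or 20 CPM in each library of the other class. Ratios were taken after adding 10 CPM, and called at 2 in each library. Ependymal cells held at least 3 UMIs of Tmem212 and Ccdc153 (424 cells), astrocytes at least 3 of Agt, Aqp4, Gjb6 and Slc7a10 (210), pituitary stem cells at least 2 of Cyp2f2, Aldh1a2 and Lcn2 (393) and microglia at least 5 of C1qa, C1qb, C1qc, Cx3cr1 and P2ry12 (307), each with Rax and Col25a1 under 2 UMIs. Intervals are exact, Poisson for CPM and Clopper-Pearson for shares, at 95%, and cover counting error only, as does the bound of 3 counts for a gene without UMIs, taken over the group. Profiles were compared over genes of at least 50 CPM. Doublets were sought with Scrublet in scanpy 1.11.5, which called 6 of 10113 cells, none a member. It had therefore not worked as a caller, and all cells were kept.

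The text names genes from the 25 leading genes and from fixed lists, a few of which are not reported here. Genes named for a difference between libraries or within the members (Lmo1, Npc2, Dlk1, Cst3, S100a6, Malat1, Arl6ip1, Scg2 and the mitochondrial genes) were chosen after their values had been seen. The members and lists were chosen with earlier results of these data known. The ratios were tested on simulated data. Python 3.11.15, numpy 2.4.6, scipy 1.17.1 and matplotlib 3.10.9 were used.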

Additional observations from a re-analysis of the deposited data

Results flagged for a closer look

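Cells that met the same rule were also found outside libraries 4 to 6, above the level that a count of 0 allows, in library 3 (5 cells), library 7 (11 cells) and library 9 (9 cells). Libraries 1, 2 and 8 held 0, 2 and 3. In all these were 30 cells, of which 1 held a Rax UMI, against 95 of the 171 members. They carried neuron transcripts: Snap25 stood at 2140 CPM against 90.2 in the members, and Rbfox3, a neuronal splicing factor gene, at 172 against 24.0. Scn7a stood at 45.8 CPM against 1220, Col23a1 at 22.9 against 433 and Mest at 11.4 against 1052, and Nkx2-1, Six3, Gpr50 and Fndc3c1 had no UMI. Ptn, a leading gene of the members, was held by them too, at 1316 CPM in 73.3% of the cells against 3120 in 78.4%. Their median depth was 2597.5 UMIs against 811.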

How the results depend on the processing

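The number of members, 171, was 72 with at least 3 UMIs of Rax and Col25a1, 75 with a UMI of each and 50 with at least 1000 UMIs a cell. Genes higher than in the other cells numbered 88, and 158 with the hormone genes kept in the totals, 144 with free RNA subtracted, 142 with no filter on low genes and 31 at a ratio of 4. Without 1 library they numbered 123 to 133, the highest without library 5. The 155 genes higher than in ependymal cells became 397 with no filter and 56 at a ratio of 4, and 189 to 229 without 1 library. The 89 higher than in astrocytes became 42 with a UMI of each rule gene, 141 by the mean over cells, 166 with free RNA subtracted, 414 with no filter and 29 at a ratio of 4, and 78 to 149 without 1 library, with 148 without library 5 and 149 without library 6. A library left out removes 1 of the conditions a gene had to meet, and for the other settings the cause was not tested. The median log2 ratio kept its sign in all 13 settings for the tanycyte list (1.47 to 2.32) and for the beta tanycyte and pituicyte list (2.07 to 3.28). Leaving out called doublets removed no member, so that setting could hardly change it. The lowest values, 1.47 and 2.07, came from cells of at least 1000 UMIs, where a library held under 10 members. Prdx6, at 1232 CPM over all members, stood at 795 without library 5, and Col13a1, at 367, stood at 240 without library 4.

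No counts were made at 3 UMIs or at 1000 UMIs a cell, which left a library with under 10 members, nor against astrocytes without cells of over 50% hormone UMIs. The setting without 4 members of many gonadotroph UMIs was added after seeing the data. No paired analysis was possible because each region and sleep group is 1 library. In library 5, 3 UMIs make 107 CPM, so levels under it rest on 1 or 2 UMIs there.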
